A study of Saccharomyces cerevisiae with 6 samples.

Results

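The transcription factors that drive the mitotic and the M/G1 waves of gene expression in *Saccharomyces cerevisiae* were compared between a xylose-fermenting strain and its *PHO13* disruptant. The group was defined by gene symbol and holds 9 of the 6256 genes on the array, *FKH1*, *FKH2*, *NDD1*, *MCM1*, *HCM1*, *SWI5*, *ASH1*, *SFG1* and *TOS4*, each found through its systematic name. Both strains derive from the *MAT*a laboratory strain YPH499 (*ade2 his3 leu2 lys2 trp1 ura3*). Both lack the aldose reductase gene *GRE3*, overexpress the xylulokinase gene *XKS1* from the *TDH3* promoter and carry several integrated copies of the *Orpinomyces* xylose isomerase gene behind the *PGK1* promoter. YΔG/XK/XI served as the control, and YΔGP/XK/XI, the disruptant, differs from it in carrying *PHO13* disrupted by *KanMX*. RNA was taken from 3 runs of each strain after 9 h in medium with 50 g/L xylose under oxygen limitation, and each run was hybridized to 1 single-colour array. Each genotype is 1 constructed strain, so the disruption and any other difference between the strains cannot be told apart, and the spread between runs is the only replicate error.

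The cell cycle of budding yeast is accompanied by a relay of transcription factors, in which one wave of genes encodes regulators of the next. Late in G1 the factors SBF and MBF switch on, among others, *HCM1* and *TOS4*. The forkhead protein Hcm1 acts in S phase on *FKH1*, *FKH2* and *NDD1*. Fkh2 then binds mitotic promoters together with the MADS-box protein Mcm1, and the coactivator Ndd1 turns these genes, the CLB2 cluster, on. Swi5 is a product of this cluster. As mitosis ends it enters the nucleus and activates M/G1 genes, among them *ASH1*, whose product represses *HO* in daughter cells.

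Each gene had 1 probe in 7 spots, and the values below are log2 intensities relative to the 75th percentile of their array (normalized log2 signal). The 75th percentile was 4631 to 7632 intensity units on the YΔG/XK/XI arrays and 3782 to 7095 on the YΔGP/XK/XI arrays, and no spot was saturated. The number of arrays limits the precision. Replicates 1 and 2 of both strains shared slide 1, and replicate 3 of both strains was on slide 2. *PHO13* itself gave a signal well above background in 3 of 3 control runs and in 0 of 3 disruptant runs. As a check of mating type, the 7 a-cell genes tested were well above background on all 6 arrays. Of the 4 α-cell genes *MF(ALPHA)1* and *MF(ALPHA)2* were above it on 1 array each, both in YΔGP/XK/XI, whereas *STE3* and *SAG1* were above it on all 6. Over all genes 29.6% were called at an adjusted p under 0.05 (limma, Benjamini-Hochberg over all genes), 16.5% higher and 13.1% lower in YΔGP/XK/XI. Scaling to the array median instead changed this split from 1033 higher and 819 lower genes to 838 and 1137.

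Of the 9 transcription factor genes 7 were higher in the disruptant, *MCM1* was lower and *FKH2* was not called. The 8 called genes stand beside a background of 29.6%, and for each of the 8 every disruptant array lay on one side of all control arrays, as for 46.6% of all genes. The increases exceeded 2-fold for *SFG1*, *SWI5* and *TOS4*, where 2.17% of all genes were called with a change of at least 2-fold and 1.55% with an increase of that size. The median log2 fold change of the 9 genes was 0.42, and that of all genes was 0.01. The 9 probes were well above background on every array, and none of their spots was marked as an outlier. The 7 replicate spots scattered with an SD of 0.023 to 0.186 (log2). The arrays measured whole cultures, so a change in the share of cells in a phase of the cycle and a change in transcript per cell cannot be told apart.

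**Figure D1:**
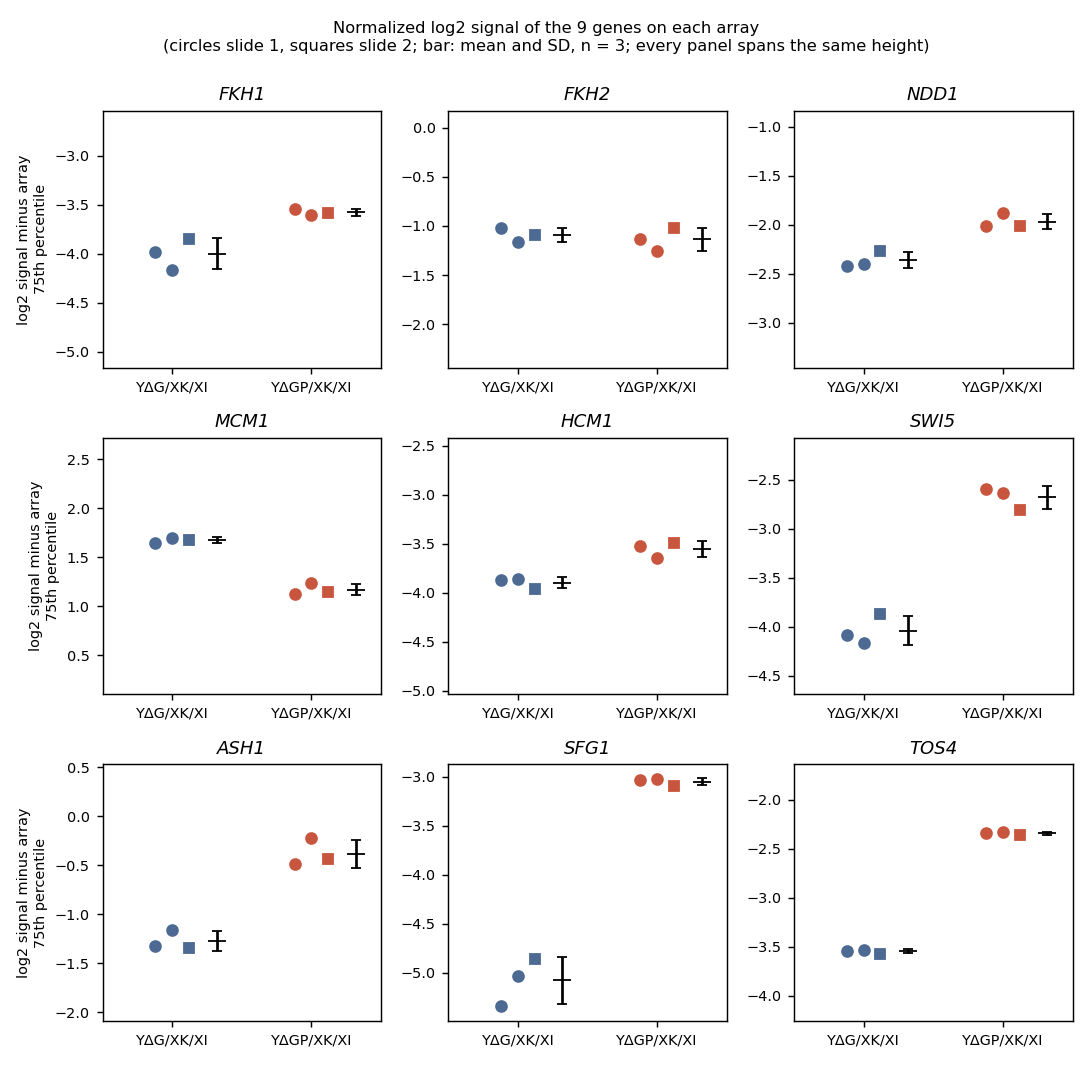
Normalized log2 signal (log2 intensity minus the log2 of the 75th percentile of the array) of the 9 genes on each of the 6 arrays, with the mean and SD of 3 arrays per strain. The arrays of the strains overlap only for *FKH2*, *MCM1* is the only gene with lower values in YΔGP/XK/XI on all arrays, and the widest gap is that of *SFG1*.

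The genes switched on at the G1/S boundary are described first. *TOS4* (YLR183C) encodes a forkhead-associated domain protein that binds promoters and histone deacetylase complexes. Its normalized log2 signal was -3.54, -3.53 and -3.57 on the control arrays and -2.34, -2.33 and -2.36 on the disruptant arrays. Each strain was tightly grouped, with SDs of 0.020 and 0.016 (n = 3 each), the smallest of the 9 genes. The rise amounted to 1.20 on the log2 scale (SE 0.06 by limma, adjusted p = 1.50e-05), or 2.30-fold. *HCM1* (YCR065W) showed the smallest of the called changes. Its signals were -3.87, -3.86 and -3.96 in the control against -3.52, -3.65 and -3.50 in the disruptant. These groups did not overlap, but the gap between the nearest arrays was narrow. *HCM1* rose by 0.34 on the log2 scale (SE 0.08 by limma, adjusted p = 0.0110), a 1.27-fold increase.

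The rises of *TOS4* and *HCM1* were compared within arrays. Within each array the *HCM1* value minus the *TOS4* value was -0.35 ± 0.03 in the control and -1.22 ± 0.10 in the disruptant (SD, n = 3 each), a shift of -0.86. Such a difference within an array does not depend on the scaling between arrays. The 2 strains did not overlap in it (exact two-sided permutation p = 0.1, the smallest that 3 arrays against 3 can give). The paralog of *TOS4*, *PLM2*, also rose, with a log2 fold change of 0.50 (adjusted p = 0.00439, limma). *TOS4* rose more than *PLM2* by 0.70 on the log2 scale, again without overlap (exact permutation p = 0.1). Differences were computed in this way for 6 pairs of genes, all of which reached this smallest p (0.1 after Benjamini-Hochberg adjustment), so the design cannot place any of them under 0.05. The share of gene pairs in general that would reach 0.1 was not computed.

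Among the regulators of the mitotic genes, *FKH1* was called higher and its paralog *FKH2* was not called. *FKH1* (YIL131C) had signals of -3.98, -4.16 and -3.85 in the control and -3.54, -3.60 and -3.58 in the disruptant. The disruptant arrays lay close together above the control arrays, whose SD was 0.16 against 0.03 (n = 3 each). *FKH1* rose by 0.42 on the log2 scale (SE 0.09 by limma, adjusted p = 0.0102), or 1.34-fold. *FKH2* (YNL068C), the forkhead gene whose product recruits Ndd1 at the CLB2 cluster, had signals of -1.02, -1.16 and -1.10 in the control and -1.14, -1.25 and -1.02 in the disruptant. These ranges overlapped almost completely. Its log2 fold change was -0.05 with a 95% interval from -0.24 to 0.15 (adjusted p = 0.712, limma). The within-array difference *FKH1* minus *FKH2* moved from -2.91 ± 0.13 to -2.44 ± 0.11 (SD, n = 3 each), a shift of 0.47 without overlap (exact permutation p = 0.1). Cross-hybridization between paralogs was not tested.

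*NDD1* (YOR372C), which encodes the essential coactivator, rose by about as much as *FKH1*. Its signals were -2.42, -2.40 and -2.27 in the control and -2.02, -1.88 and -2.01 in the disruptant. All values of the disruptant lay above those of the control. The rise was 0.39 on the log2 scale (SE 0.08 by limma, adjusted p = 0.00732), or 1.31-fold. *MCM1* (YMR043W), which encodes the DNA-binding partner of Fkh2, Yox1, Yhp1 and the mating-type regulators, changed in the other direction. It had signals of 1.64, 1.70 and 1.68 in the control and 1.12, 1.24 and 1.15 in the disruptant. The groups were separated by several times their SDs of 0.03 and 0.06 (n = 3 each). *MCM1* was 1.42-fold lower in the disruptant, with a log2 fold change of -0.50 (SE 0.07 by limma, adjusted p = 0.00128).

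The genes of the mitotic activator complex were also compared with each other. Within arrays, *NDD1* minus *MCM1* shifted by 0.89, from -4.03 ± 0.08 to -3.14 ± 0.02 (SD, n = 3 each). *NDD1* minus *FKH2* shifted by 0.44, from -1.27 ± 0.12 to -0.83 ± 0.19, and neither difference overlapped between the strains (exact permutation p = 0.1 each). For *NDD1* minus *MCM1* this was fixed in advance, because *NDD1* rose and *MCM1* fell, each without overlap. *ARG80*, the MADS-box paralog that lies beside *MCM1* on its chromosome and a regulator of arginine metabolism, was also lower, with a log2 fold change of -0.28 (adjusted p = 0.0355, limma), but this call was lost under 6 of the 16 alternative settings. *MCM1* fell more than *ARG80* by 0.22 on the log2 scale within arrays (exact permutation p = 0.1). Of 5 family members and paralogs in all, *PLM2* was higher, *ARG80* was lower, and *FHL1*, *RLM1* and *SMP1* were not called, with log2 fold changes between -0.11 and 0.08. That is 20% of the list in each direction, beside 16.5% of all genes higher and 13.1% lower.

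**Figure D2:**
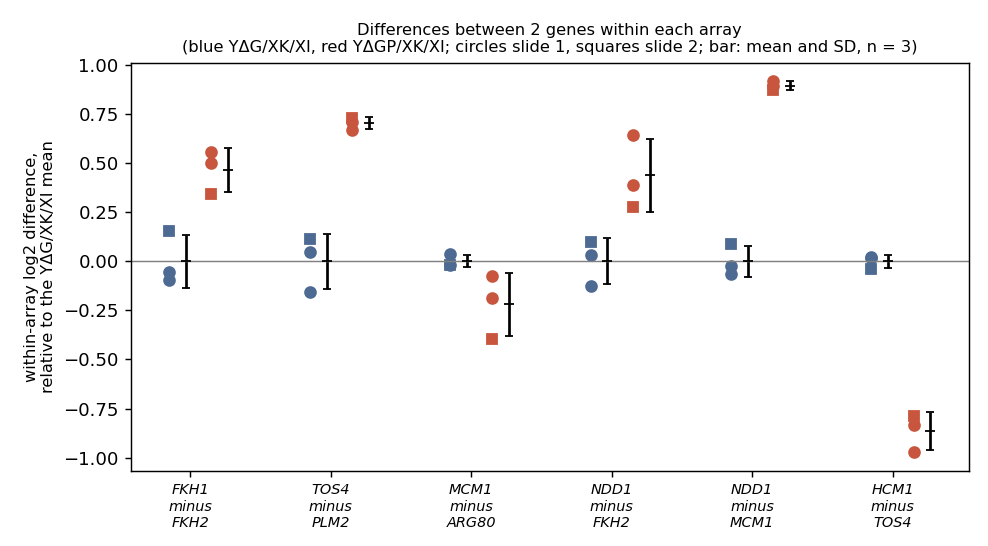
Within-array difference between the normalized log2 signals of 2 genes, relative to the mean of YΔG/XK/XI, for 6 pairs of paralogs or partners; points are arrays and bars are the mean and SD (n = 3). The YΔGP/XK/XI arrays lie apart from the YΔG/XK/XI arrays in every pair, most widely for *NDD1* minus *MCM1* (shift of 0.89) and *HCM1* minus *TOS4* (shift of -0.86), and the smallest shift is that of *MCM1* minus *ARG80* (-0.22). For *NDD1* minus *MCM1* the separation follows from the opposite changes of the 2 genes. Of single genes 46.6% lay apart between the strains, and the share among gene pairs in general was not computed.

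The largest change of the group was that of *SFG1* (YOR315W), which encodes a putative transcription factor needed for superficial pseudohyphal growth. Its signals were -5.34, -5.03 and -4.86 in the control and -3.03, -3.03 and -3.09 in the disruptant. The control arrays were the more variable, with an SD of 0.24 against 0.04 (n = 3 each), yet the lowest disruptant array stood far above the highest control array. This log2 fold change of 2.03 (SE 0.12 by limma, adjusted p = 2.36e-05) corresponded to a 4.08-fold increase and ranked 11th in size among the 6256 genes. On the control arrays the *SFG1* probe was the dimmest of the 9, with median spot intensities of 159 to 200 units over a background of 22 to 25 units at its spots, against 447 to 878 units on the disruptant arrays. With another background correction, normexp, the log2 fold change was 1.69 (adjusted p = 3.83e-05, limma).

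*SWI5* (YDR146C), a CLB2 cluster gene for the zinc finger activator of M/G1 genes, followed. Its signals were -4.09, -4.17 and -3.87 in the control and -2.60, -2.64 and -2.81 in the disruptant. The array of slide 2 was the highest of the control strain and the lowest of the disruptant, and the groups remained well apart. Expressed as log2, the increase of *SWI5* was 1.36 (SE 0.10 by limma, adjusted p = 5.88e-05), or 2.57-fold. *ASH1* (YKL185W), the Swi5 target that represses *HO* and whose mRNA is carried into the bud, had signals of -1.32, -1.16 and -1.34 in the control and -0.49, -0.22 and -0.44 in the disruptant. Replicate 2 was the highest in both strains, and the groups did not overlap. *ASH1* increased by 0.89 on the log2 scale (SE 0.10 by limma, adjusted p = 3.64e-04), or 1.85-fold.

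The change was also taken within each slide, with 2 arrays against 2 on slide 1 and 1 against 1 on slide 2. The 8 called genes had the same direction on both slides. For *TOS4* the log2 differences were 1.20 and 1.21, for *ASH1* 0.88 and 0.90, and for *MCM1* -0.49 and -0.53. These 3 genes hardly varied between the slides. *SFG1* rose by 2.16 on slide 1 and by 1.77 on slide 2, and *SWI5* by 1.51 and 1.06. The difference of *FKH1* was 0.50 on slide 1 and 0.26 on slide 2, that of *NDD1* was 0.46 and 0.26, and that of *HCM1* was 0.28 and 0.46. These 3 smaller changes thus varied most between the slides in proportion to their size. *FKH2* gave -0.11 on slide 1 and 0.08 on slide 2. With the slide as a block the 8 genes remained called and *FKH2* was not (adjusted p = 0.671, limma).

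**Figure D3:**
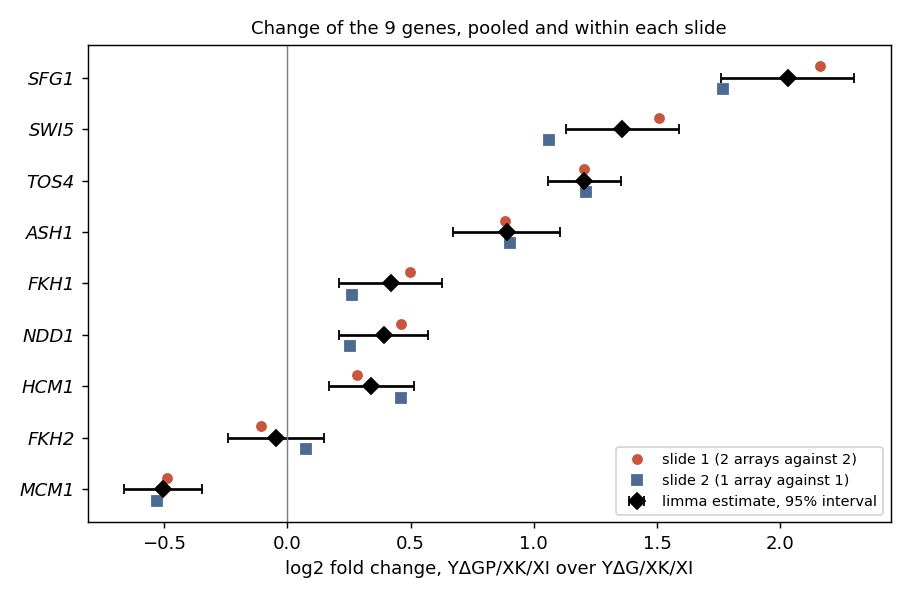
Log2 fold change of the 9 genes, YΔGP/XK/XI over YΔG/XK/XI, as estimated by limma with its 95% interval (diamonds) and within slide 1 (circles, 2 arrays against 2) and slide 2 (squares, 1 against 1). The interval of *FKH2*, from -0.24 to 0.15, includes 0, and *TOS4*, *ASH1* and *MCM1* gave nearly the same value on both slides.

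The genes on which these factors act were examined as lists. Where a list below has 0 genes called in a direction by limma, 0 also passed an unadjusted p under 0.05 in that direction unless another count is given. The list of CLB2 cluster genes, targets of the Fkh2-Mcm1-Ndd1 complex, held 21 genes besides *SWI5*. Of these 16 (76.2%) were higher and *CDC20* alone was lower, against 16.5% and 13.1% of all genes, with a median log2 fold change of 0.83. The mitotic cyclin genes *CLB2* (2.29) and *CLB1* (2.24) rose most, followed by *CHS2* (1.71), which encodes the chitin synthase of the primary septum (adjusted p of 2.00e-05 or below, limma). The signals of *CDC20*, which encodes the activator of the anaphase-promoting complex, were -0.60, -0.89 and -0.87 in the control and -1.36, -1.43 and -1.25 in the disruptant. Its log2 fold change was -0.56 (adjusted p = 0.00408, limma), opposite in direction to the 16 other genes called in its list.

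Of 17 M/G1 genes besides *ASH1*, a list of Swi5 targets and genes of cell separation, 13 (76.5%) were higher and 0 were lower (1 lower by limma at an unadjusted p under 0.05), with a median log2 fold change of 0.62. *DSE2* (1.69), *SCW11* (1.40) and *EGT2* (1.33), which encode proteins of the wall degradation that separates daughter from mother, rose most (adjusted p of 5.76e-05 or below, limma). *SIC1*, the Swi5 target that encodes the inhibitor of Clb kinases, had signals of 1.75, 1.60 and 1.85 in the control and 1.66, 1.70 and 1.79 in the disruptant. The groups overlapped, and its log2 fold change was -0.01 with a 95% interval from -0.21 to 0.18. *HO*, the mating-type switching endonuclease gene that Swi5 activates and Ash1 represses, had a log2 fold change of 0.64 (adjusted p = 7.86e-04, limma), higher on the 3 arrays of the disruptant than on any array of the control.

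**Figure D4:**
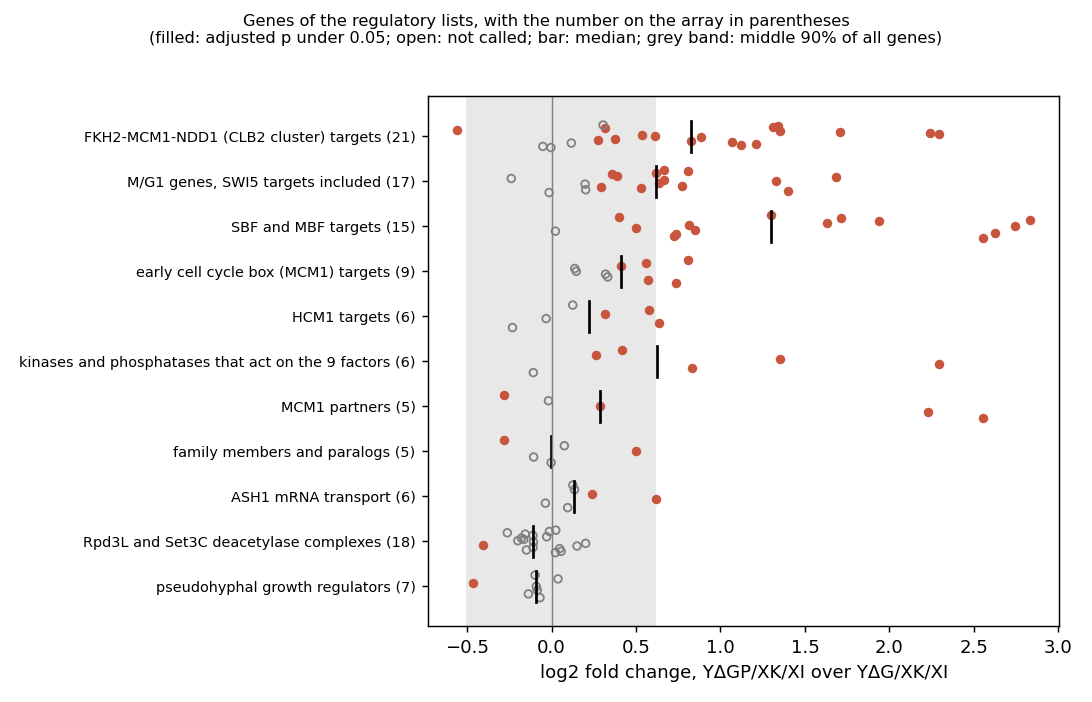
Log2 fold change, YΔGP/XK/XI over YΔG/XK/XI, of every gene in 11 lists of targets, partners and regulators; filled points were called, open points were not, the bar is the median of the list and the grey band holds the middle 90% of all genes, from -0.50 to 0.61. The SBF and MBF targets and the CLB2 cluster lie furthest to the right (medians of 1.30 and 0.83), and the deacetylase complexes and pseudohyphal regulators lie near 0.

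The SBF and MBF targets, the wave to which *HCM1* and *TOS4* belong, had 14 of 15 genes (93.3%) higher and 0 lower. These shares stand beside 16.5% and 13.1% of all genes, and the median log2 fold change was 1.30. *CLN1*, *PCL1* and *RNR1* led this list (2.83, 2.74 and 2.63), and the change of *HCM1* lay below that of all its genes but *RFA1* (0.02). Of the 6 Hcm1 targets outside the group 3 (50%) were higher and 0 lower, with a median of 0.22. These were the γ-tubulin gene *TUB4* (0.64, adjusted p = 5.29e-04, limma), the kinesin gene *CIN8* (0.57, adjusted p = 0.00123) and the kinetochore gene *DSN1* (0.32), whose call was lost in 9 of the 16 alternative settings.

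Mcm1 also acts in M/G1, on early cell cycle boxes that the homeodomain repressors Yox1 and Yhp1 close. Of these 9 targets 5 (55.6%) were higher and 0 were lower, beside 16.5% and 13.1% of all genes, with a median of 0.41. The highest were the replication licensing gene *CDC6* (0.81), the SBF subunit gene *SWI4* (0.74) and *MCM7* (0.57), which encodes a subunit of the replicative helicase. *CDC6* stands in the list of M/G1 genes as well. Both repressor genes rose far more than their targets. *YOX1* had signals of -4.79, -4.78 and -4.75 in the control and -2.36, -2.08 and -2.21 in the disruptant, an increase of 2.56 on the log2 scale (SE 0.08 by limma, adjusted p = 1.15e-06). *YHP1* increased by 2.23 on that scale (SE 0.08, adjusted p = 1.83e-06 by limma). *YOX1* stands in the list of SBF and MBF targets as well. With *STE12* (0.29, adjusted p = 0.0317 by limma, lost in 7 of the 16 alternative settings), 3 of the 5 Mcm1 partner genes (60%) were higher. *ARG80* was lower (20%) and *ARG81* was not called, beside 16.5% of all genes higher and 13.1% lower. This count of 4 fell to 2 without replicate 1 or 3 of the control or without replicate 1 or 2 of the disruptant.

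Genes whose products act on the factors after transcription also rose in part. Of 6 such genes 5 (83.3%) were higher, beside 16.5% of all genes. They were *CLB2*, the polo kinase gene *CDC5* (1.35), *DBF2* (0.83), the phosphatase gene *CDC14* (0.41) and *CDC28* (0.26, lost in 7 settings). *PKC1* was not called (-0.11). *CLB2* and *CDC5* stand in the CLB2 cluster as well. Of the Rpd3L and Set3C deacetylase complexes, which work with Ash1 and Tos4, 0 of 18 genes were higher (1 at an unadjusted p under 0.05) and only *SDS3* was lower (-0.41, adjusted p = 0.00949, limma), beside 13.1% of all genes, with a median of -0.11. In this list 3 genes were lower at an unadjusted p under 0.05, and 3 were called lower with quantile normalization or median scaling. Of 6 genes for the transport and silencing of *ASH1* mRNA, *PUF6* (0.62) and *MYO4* (0.24) were higher, which makes 33.3% beside 16.5% of all genes, and the adapter genes *SHE2* (-0.04) and *SHE3* (0.10) were not called. Puf6 also takes part in assembly of the large ribosomal subunit. The call of *MYO4* was lost in 8 of the 16 alternative settings, each of which left *PUF6* as the only gene called in this list.

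No other gene listed for pseudohyphal growth was called higher. Of 7 such genes, *FLO11* included, only *MGA1* was called, and it was lower, with a log2 fold change of -0.47 (adjusted p = 0.0161, limma). This makes 14.3% of the list lower, near the 13.1% of all genes. *MGA1* was no longer called without replicate 1 of the control or replicate 1 of the disruptant. The other 6 log2 fold changes lay between -0.14 and 0.04. Across the array, the 5 genes whose values over the 6 arrays came nearest to those of *SFG1*, after centring each gene on its mean, were *GND1*, *CLN2*, *CWP2*, *SOL3* and *CLB1*, with root mean square differences of 0.12 to 0.16 on the log2 scale. They include 2 cyclin genes, 2 genes of the pentose phosphate pathway and a cell wall protein gene. Each of the 5 was higher on the 3 disruptant arrays than on any control array. Their choice by nearness to *SFG1*, whose strains lay far apart, fixed this in advance.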

How the data were processed

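The authors deposited, for each of the 6 arrays, the output of Agilent Feature Extraction 10.1.1.1, from which the background-subtracted intensity, the raw and background intensities and the spot flags were used. A second deposited file holds log2 values, and these matched the intensities here scaled to the 75th percentile of each array and centred on the median of each probe (r of 0.99993 or above, median difference up to 0.00601). Control spots and spots marked as outliers were left out, the log2 intensities of the 7 spots of a probe were averaged, and each array was set relative to its 75th percentile, because the study's methods state a normalization per chip. At least 4 flagged spots were required for a probe to count as well above background. The R64 annotation held 5756 of the 6256 systematic names and served for symbols and neighbours. The build of the probes is not given in the sources used here, and no coordinates or sequences are shown.

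Differences between the strains were fitted by lmFit and eBayes of limma 3.58.1 (R 4.3.3). Calls were made at 0.05 after Benjamini-Hochberg adjustment over the whole array of 6256 genes. Pairs of genes were compared by exact two-sided permutation of the 6 arrays. The members and lists were chosen with earlier results of these data known, and the lists were written from general knowledge. They held 109 different genes, of which 6 stood in 2 lists, and the values of some single genes were left out of them and are not reported here. The genes named are the 9 factors, the (at most 3) most changed of the called genes of every list, paralogs and partners, and the 5 genes nearest to *SFG1*. *CDC20*, *SIC1*, *HO*, *DSE3*, *RFA1* and the further genes given for the short lists were chosen after their values were seen. The fit was tested on simulated data. The alternatives were normexp background correction (offset 50), quantile normalization, median scaling, outlier spots kept, a median instead of a mean of spots, a fit restricted to probes well above background, a variance trend with intensity, a block for the replicate number or for the slide, the authors' own log2 values, and omission of each array. Normexp was run on median raw and background intensities.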

Additional observations from a re-analysis of the deposited data

How the results depend on the processing

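The count of 8 called factors held under each of the 16 alternatives, and *FKH2* was called in none of them. The direction of the 8 also held in each, whereas that of *FKH2* turned, its log2 fold change ranging from -0.104 to 0.013 with an array left out and being 0.013 without replicate 2 of YΔGP/XK/XI. The largest adjusted p of a called factor was 0.0425, for *HCM1* without replicate 1 of YΔGP/XK/XI. Counts for all genes, the 9 factors and the 11 lists stayed within 1.5 times under 119 of 130 combinations with a setting that kept all arrays. The exceptions were the *ASH1* mRNA transport genes, with 1 called instead of 2 under quantile normalization, median scaling or with outlier spots kept, the family members and paralogs, with 1 called instead of 2 under normexp, and the deacetylase complexes, with 1 called at first, 3 under quantile normalization or median scaling and 2 under normexp, with only probes well above background, with the intensity trend, or with the replicate or slide block. With an array left out, 1178 to 1661 genes were called in all (1852 with every array), the lowest without replicate 1 of YΔG/XK/XI. The ranges were 2 to 3 for the Mcm1 partners, 1 to 2 for the family members and paralogs, 1 to 2 for the *ASH1* mRNA transport genes, 1 to 2 for the deacetylase complexes and 0 to 1 for the pseudohyphal regulators. A single family member was called without any 1 array except replicate 3 of YΔGP/XK/XI. A single transport gene was called without any 1 array except replicate 2 of YΔGP/XK/XI. Without replicate 3 of YΔGP/XK/XI 2 deacetylase genes were called, 1 higher and 1 lower. The 2 called with the slide block were split in the same way. The cause of these shifts was not tested. The deviations of same-numbered arrays from their strain means correlated at 0.0656, 0.301 and 0.415 across genes, which does not establish pairing, and 1 of the 6 arrays correlated better with another number than with its own. With the replicate number as a block 2362 genes were called, among them the same 8 factors. On the control arrays the probe of *SFG1* was the nearest to background of the 9.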
